A study of Mus musculus with 24 samples.

Results

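The 7 genes described here encode the constant parts of the alpha beta T cell receptor and the signalling chains carried with it: Trac for the alpha constant region, Trbc1 and Trbc2 for the beta constant regions, Cd3d, Cd3e and Cd3g for the CD3 delta, epsilon and gamma chains, and Cd247 for the zeta chain. They were chosen by gene symbol, 7 of the 55025 symbols in the table, and all 7 passed the filter on low counts. RNA was sequenced from sorted cells of TCRα-/- mice, which carry a disrupted alpha chain gene, as do the animals of every group, and which bore pancreatic tumors grown in place from implanted M8 organoids. The 24 libraries form 8 groups of 3, namely CD45+CD8+ and CD45+CD4+ cells of tumor and of spleen, each from mice given LCL161 and from mice given vehicle. LCL161, an oral SMAC mimetic that antagonises the ubiquitin ligases cIAP1 and cIAP2, was given by gavage in doses of 75 mg/kg, every 3 days beginning on day 4. Cells were taken on day 12, after 3 doses. The sources used here do not give the age of the mice, nor whether replicates are separate mice. The gate as described names no receptor chain, so any CD45+ cell with CD4 or CD8 on its surface could enter it.

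An alpha beta receptor needs both chains: the alpha chain pairs with a beta chain, and the pair reaches the cell surface only when assembled with the CD3 dimers and the zeta dimer, whose cytoplasmic motifs are phosphorylated by Lck and recruit Zap70. Gamma delta T cells use the same CD3 and zeta chains with a gamma and a delta chain in place of alpha and beta. Mice without a working alpha chain are known to lack conventional alpha beta T cells, while gamma delta T cells and a small CD4+ population with a beta chain but no alpha chain remain.

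The beta constant genes lie 6848 bases apart on chromosome 6, Trbc1 at chr6:41538218-41539881 and Trbc2 at chr6:41546730-41548352 (GRCm38, plus strand). Their coding sequences are shown because they limit how far reads can be assigned to one or the other. Exon 1 has 375 bases in each gene with a single difference, C260A, counted from the first base of the exon with the Trbc1 base first. Over the 521 coding bases 23 differ, 22 of them in the last 146 bases, and of the 51-base windows along the transcripts 40.9% of those of Trbc1 also occur in Trbc2 and 43.8% of those of Trbc2 in Trbc1. The split of counts between Trbc1 and Trbc2 is therefore uncertain, and sums are given beside it. Capitals mark the bases that differ, first in coding bases 230 to 289 of exon 1 and then in coding bases 376 to 521 of exons 2 to 4.
Trbc1 exon 1, chr6:41538447-41538506: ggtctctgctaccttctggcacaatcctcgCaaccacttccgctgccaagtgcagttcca
Trbc2 exon 1, chr6:41546959-41547018: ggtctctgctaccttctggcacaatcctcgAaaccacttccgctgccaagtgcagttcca
Trbc1 exons 2 to 4, chr6:41539114-41539665: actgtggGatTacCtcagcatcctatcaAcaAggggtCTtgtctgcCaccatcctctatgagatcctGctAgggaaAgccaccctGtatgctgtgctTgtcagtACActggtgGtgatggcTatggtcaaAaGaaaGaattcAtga
Trbc2 exons 2 to 4, chr6:41547610-41548181: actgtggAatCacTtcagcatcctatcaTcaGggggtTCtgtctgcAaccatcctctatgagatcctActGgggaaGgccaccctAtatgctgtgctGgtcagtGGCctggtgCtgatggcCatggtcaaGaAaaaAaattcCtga

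The other members lie on 3 chromosomes. Trac is at chr14:54220521-54224206 (plus strand) and Cd247 at chr1:165788681-165877277 (plus). The CD3 genes sit together on chromosome 9, with Cd3g at chr9:44969572-44980431 (minus), Cd3d at chr9:44981786-44987339 (plus) and Cd3e at chr9:44998740-45009627 (minus), and Cd3g and Cd3d start 1354 bases apart and run away from each other. Of the exon bases of Cd247, 3007 overlap exons of Pou2f1 on the opposite strand and 206 those of Gm16565 on the same strand, and 135 exon bases of Cd3e overlap Gm48719 on the opposite strand. The sources used here do not say whether counting used the strand, so reads in those stretches may have been assigned to either gene.

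Promoter windows in the RefSeq table (GRCm38.p6, 250 bases before to 50 after the start) were found for 4 of the 7 members, Cd3d, Cd3e, Cd3g and Cd247. They are shown because Cd3d, Cd3e and Cd3g rose together in tumor against spleen CD8 cells of vehicle-treated mice. Each of the 4 windows holds the E-box CACCTG on one strand or the other (1, 1, 2 and 1 matches), as do 20.2% of the 32851 promoter windows in the table. Of the other motifs searched on both strands, CTTCC was in the windows of Cd3d (2 matches), Cd3e (3) and Cd247 (2) and in 71.4% of all windows, and CAGCTG (16.3% of windows) and AGATAA (11.2%) were each in the Cd3g window only. TGTGGT (16.8%), TATAAA (13.6%) and the NF-kappaB consensus (0.155%) matched none of the 4, and no match overlapped a match to another motif. A match is a description of letters in the window and not a binding site. Capitals mark CACCTG or its reverse complement in 60-base stretches, each written on the strand of its gene.
Cd3d, chr9:44981647-44981706: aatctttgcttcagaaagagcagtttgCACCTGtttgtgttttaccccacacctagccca
Cd3e, chr9:45009576-45009635: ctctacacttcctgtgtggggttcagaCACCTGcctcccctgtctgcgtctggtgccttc
Cd3g, distal match, chr9:44980547-44980606: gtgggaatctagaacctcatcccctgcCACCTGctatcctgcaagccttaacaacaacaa
Cd3g, proximal match, chr9:44980434-44980493: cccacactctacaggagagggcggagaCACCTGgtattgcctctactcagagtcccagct
Cd247, chr1:165788644-165788703: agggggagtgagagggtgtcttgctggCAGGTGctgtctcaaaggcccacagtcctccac

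Libraries held 15455227 to 25144888 counts, and levels are CPM values computed by edgeR on the TMM-scaled library totals. The sorting genes matched the labels in all 24 libraries: Cd8a was at 565 to 1159 CPM in the CD8-sorted libraries and 0.0469 to 3.98 CPM in the CD4-sorted ones. Cd4 was at 7.07 to 31.7 CPM in the CD8-sorted libraries and 688 to 1430.3 CPM in the CD4-sorted ones. Cd8b1 was separated less widely, at 326 to 1175 CPM in the CD8-sorted libraries and 5.28 to 97.1 CPM in the CD4-sorted ones. Markers of other cells were present. Summed over their lists, 10 B cell markers ran from 31.1 to 298.5 CPM in tumor libraries and from 707 to 2594 CPM in spleen libraries, and 10 monocyte and macrophage markers from 608 to 6039 CPM in tumor and from 86.3 to 400.2 CPM in spleen. The 9 conventional dendritic cell markers reached 1769 to 1992 CPM in spleen CD8 vehicle, against 70.3 to 647 CPM in the other groups. Neutrophil markers (8) summed to 23.6 to 1457 CPM and epithelial and acinar markers (7) to 9.02 to 210.5 CPM, with Elane at 0 in the tumor vehicle groups and Krt19, Prss1 or Cpa1 at 0 in 3 of the 4 spleen groups. Fewer T cells in a gate and less RNA per T cell cannot be told apart in such bulk samples. Genes were tested with edgeR's quasi-likelihood test across all 24 libraries, with Benjamini-Hochberg adjustment over the 20174 genes tested, and a gene is called where the adjusted p is under 0.05. Fold changes are log2 values ± SE with n = 3 libraries a group, levels are mean ± SD, and the p-values measure the spread between samples, which may be technical.

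Trac, which encodes the constant region of the alpha chain disrupted in these mice, was present in all 24 libraries. In tumor CD8 libraries it was at 19.6, 35.5 and 21.7 CPM with LCL161 and 23.5, 18.2 and 20.3 CPM with vehicle, and in spleen CD8 libraries at 12.2, 21.1 and 20.2 CPM with LCL161 and 9.30, 11.1 and 10.6 CPM with vehicle. In tumor CD4 libraries it was at 826, 553 and 363 CPM with LCL161 and 63.2, 404 and 548 CPM with vehicle, and in spleen CD4 libraries at 1082, 758 and 353 CPM with LCL161 and 293, 573 and 119 CPM with vehicle. Every CD8 library lay below every CD4 library, and the CD4 libraries spanned a 17.1-fold range against 3.81-fold among the CD8 ones. The sources used here do not say which part of the alpha chain gene is disrupted, so these counts do not show whether a complete alpha chain message was made.

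Per length of exon the beta constant genes were the most abundant members. The median over the 24 libraries was 842 CPM per kb of exon for Trbc2 and 523 for Trbc1, against 299 for Cd3d, 240.5 for Cd3e, 233 for Cd3g, 52.7 for Trac and 42.6 for Cd247, the chain on which much of the signalling capacity of the complex rests. This order rests on the lengths used, 692 exon bases for Trbc2 and 5329 for Cd247, of which 518 and 783 are coding. In CPM the medians of Cd3e (981) and Cd3g (763) were above that of Trbc2 (583). Cd3d (543) lay below Trbc2 but above Trbc1, and Trac (49.3) was lowest, below Cd247 (227). By gate and per length, Trac had the lowest median of the members in CD8 libraries, 21.3 CPM per kb, and came after Trbc2 and Trbc1 in CD4 libraries, at 509 CPM per kb. Spleen CD8 vehicle had the lowest mean CPM of the 8 groups for each of the 7 members. Neighbours in the order of group means overlapped in most cases: of the 7 neighbouring pairs per gene, 2 were separate for Trac, Trbc1, Trbc2 and Cd3g, 1 for Cd3e and Cd247, and 0 for Cd3d. For Trac the separate pairs were spleen CD8 LCL161 (17.8 ± 4.90 CPM) above spleen CD8 vehicle (10.3 ± 0.924 CPM), and spleen CD4 vehicle (328 ± 229 CPM) above tumor CD8 LCL161 (25.6 ± 8.61 CPM).

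**Figure D1:**
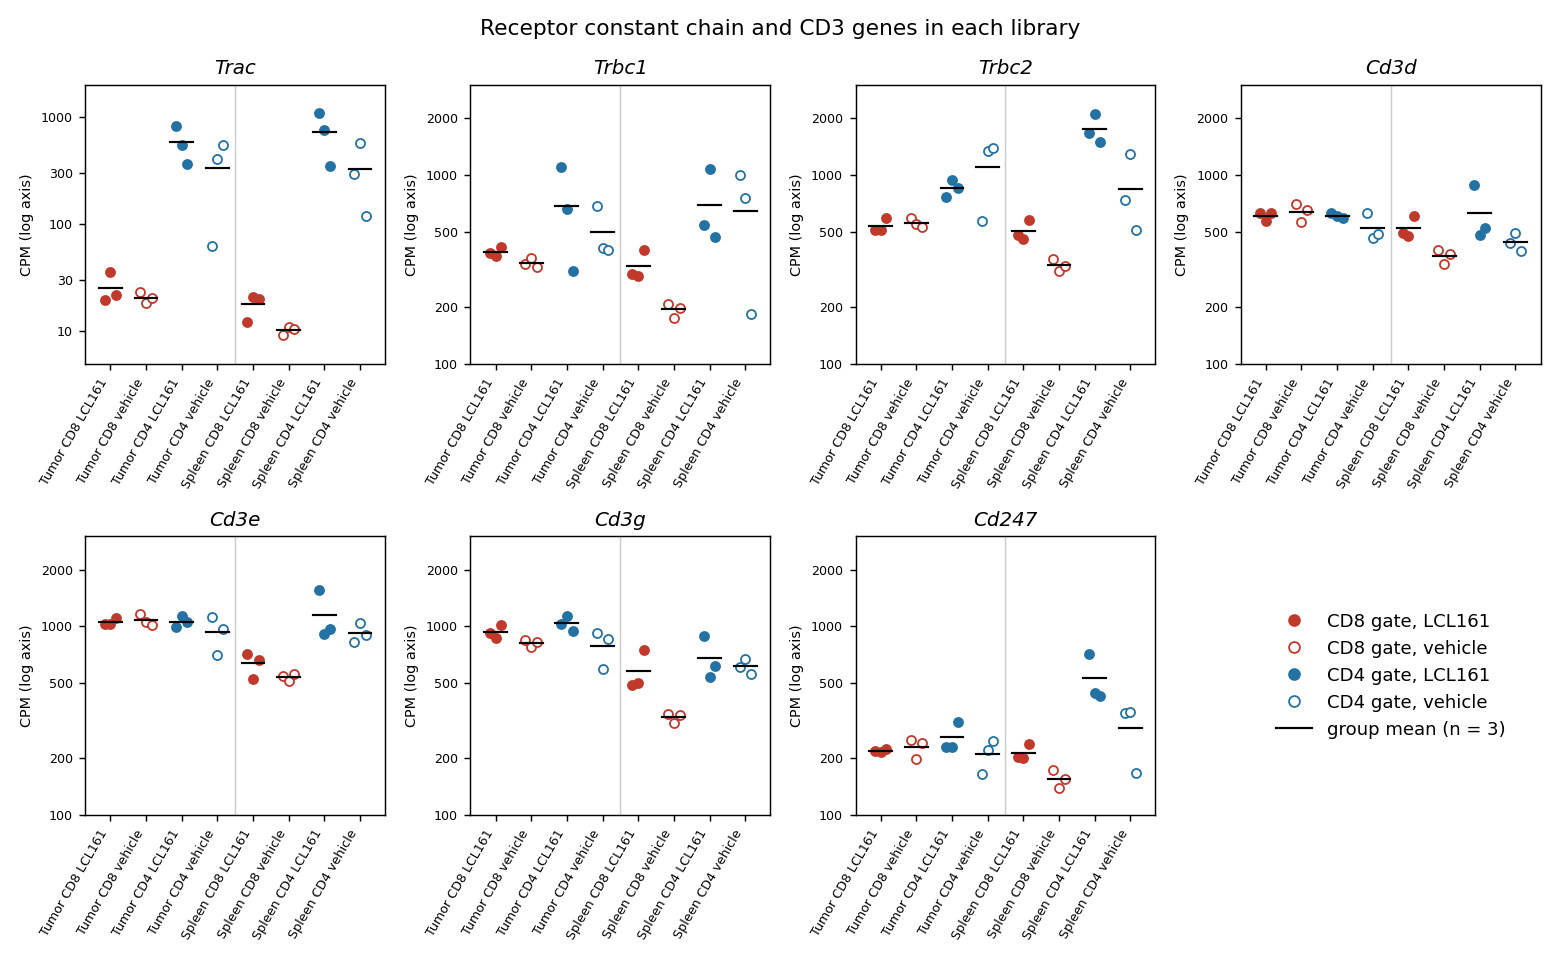
CPM on a log axis for each of the 7 members, with 1 point per library, 3 libraries a group and a bar at the group mean. Red points are CD8-sorted and blue points CD4-sorted, filled with LCL161 and open with vehicle. Trac separates the gates in every tissue and treatment (9.30 to 35.5 CPM in the CD8 gate, 63.2 to 1082 CPM in the CD4 gate), while the CD3 genes lie lowest in spleen CD8 vehicle.

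Trbc2 was at 510.0, 509 and 589 CPM in tumor CD8 LCL161 and 594, 548 and 532 CPM in tumor CD8 vehicle, and at 481, 457 and 577 CPM in spleen CD8 LCL161 and 358, 310.1 and 328 CPM in spleen CD8 vehicle. In CD4 libraries it was at 761, 936 and 857 CPM in tumor LCL161 and 569, 1335 and 1382 CPM in tumor vehicle, and at 1669.8, 2104 and 1486 CPM in spleen LCL161 and 733, 1284 and 508 CPM in spleen vehicle. The 3 spleen CD4 LCL161 libraries were above all other libraries, and the CD8 libraries of a group lay close together. Trbc1 ran from 175 to 415 CPM in the CD8 gate and from 184 to 1098 CPM in the CD4 gate. Its lowest CD4 libraries were spleen vehicle replicate 3 at 184 CPM and tumor LCL161 replicate 3 at 309 CPM, both within the range of the CD8 gate. The sum of both beta genes was 486 to 1004 CPM in the CD8 gate and 692 to 3176 CPM in the CD4 gate, and the ranges overlapped.

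The balance of the beta genes and of alpha to beta also varied more between CD4 libraries, as a description without a test. Trbc2 made up 56.9% to 63.9% of the Trbc1 and Trbc2 counts in the CD8 gate and 40.9% to 77.7% in the CD4 gate. The lowest shares were 40.9% in tumor CD4 LCL161 replicate 1, 42.3% in spleen CD4 vehicle replicate 1 and 45.3% in tumor CD4 vehicle replicate 1, and the highest was 77.7% in tumor CD4 vehicle replicate 3. Per length, Trac stood at 1.19% to 3.07% of Trbc1 plus Trbc2 in the CD8 gate and at 3.88% to 36.9% in the CD4 gate, with no overlap between gates. The 1 CD4 library under 10% was tumor vehicle replicate 1.

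**Figure D2:**
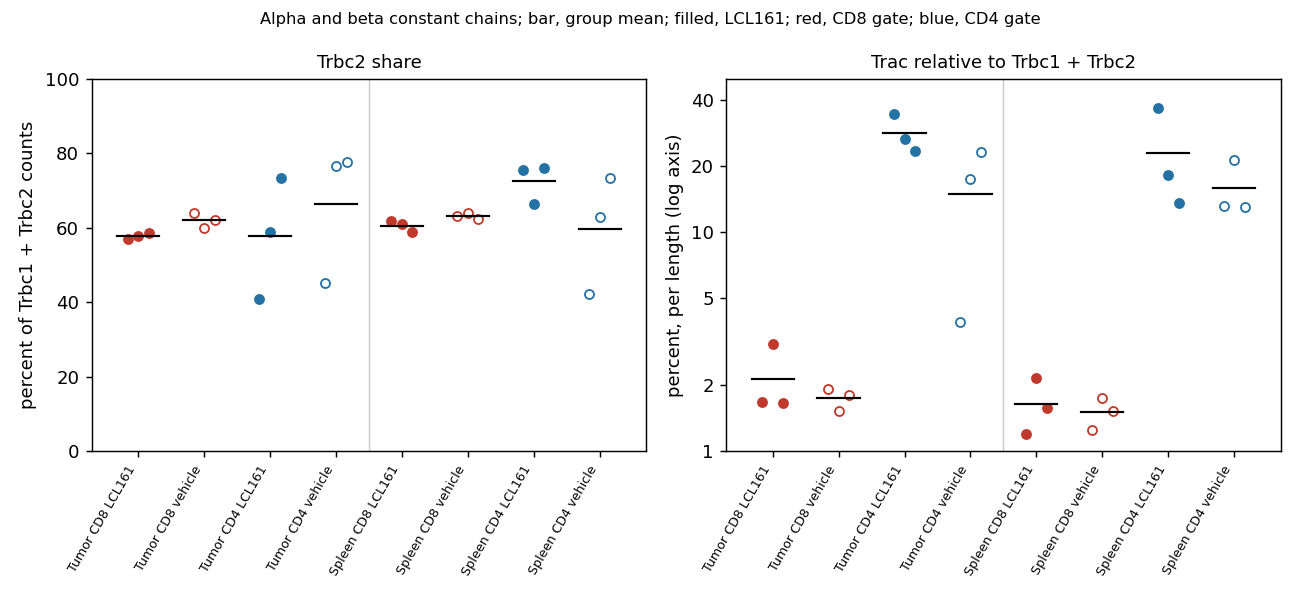
Left, percent of the Trbc1 plus Trbc2 counts assigned to Trbc2; right, Trac per length as a percent of Trbc1 plus Trbc2 per length on a log axis. Points are libraries, bars group means, red the CD8 gate, blue the CD4 gate, filled LCL161 and open vehicle. CD8 libraries sit between 56.9% and 63.9% on the left, and below every CD4 library on the right.

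Trdc, the delta constant gene that lies upstream of Trac on chromosome 14, was read beside it. It was at 567 to 1667 CPM in the CD8 gate and 7.99 to 571 CPM in the CD4 gate. Among the CD4 vehicle libraries the pair with the least Trac had the most Trdc: tumor replicate 1 had 63.2 CPM Trac and 544 CPM Trdc and spleen replicate 3 had 119 CPM Trac and 571 CPM Trdc, while tumor replicate 3 had 548 CPM Trac and 21.6 CPM Trdc. In LCL161 libraries low Trac did not go with high Trdc: spleen CD4 replicate 3 had 353 CPM Trac with 15.0 CPM Trdc, and tumor CD4 replicate 3 had 363 CPM Trac with 8.94 CPM Trdc. How much of the spread in Trac goes with gamma delta cells in the gate was not tested.

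**Figure D3:**
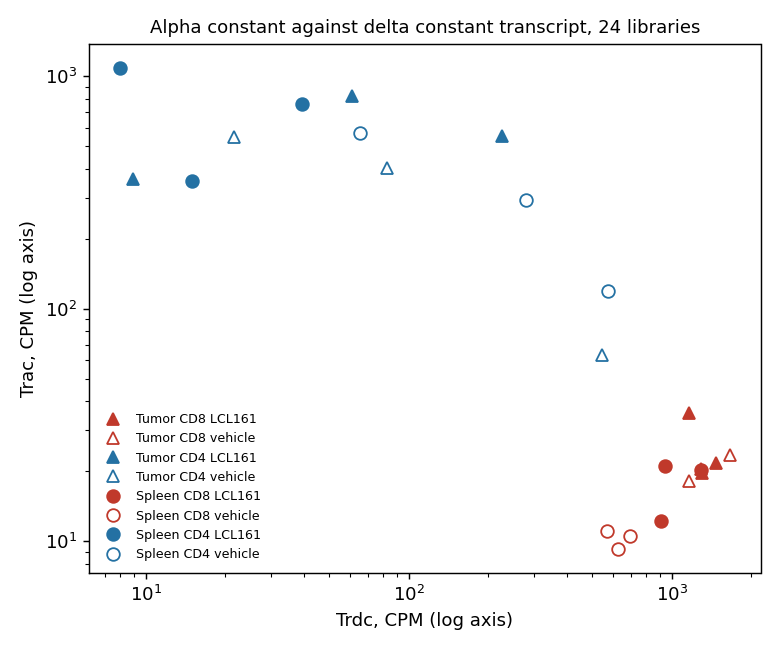
Trac against Trdc in CPM, both on log axes, with 1 point per library (24), triangles for tumor, circles for spleen, red for the CD8 gate, blue for the CD4 gate, filled for LCL161 and open for vehicle. CD8 libraries gather at 567 to 1667 CPM Trdc and 9.30 to 35.5 CPM Trac, and CD4 libraries reach from 7.99 to 571 CPM Trdc.

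Among the CD3 chains, Cd3e, whose product forms a dimer with both CD3 delta and CD3 gamma, was at 1029, 1033 and 1112 CPM in tumor CD8 LCL161 and 1163, 1051 and 1015 CPM in tumor CD8 vehicle, and at 714, 528 and 665 CPM in spleen CD8 LCL161 and 548, 514 and 559 CPM in spleen CD8 vehicle. In CD4 libraries it was at 994, 1129.9 and 1059 CPM in tumor LCL161 and 1114, 707 and 965 CPM in tumor vehicle, and at 1568, 914 and 968 CPM in spleen LCL161 and 825, 1043 and 899.9 CPM in spleen vehicle. The 6 spleen CD8 libraries were low, and 1 of them exceeded the lowest library of any other group, tumor CD4 vehicle replicate 2. Cd3g, the gamma chain, was at 925, 867 and 1019.9 CPM in tumor CD8 LCL161 and 844, 778 and 831 CPM in tumor CD8 vehicle, and at 486, 499 and 748 CPM in spleen CD8 LCL161 and 343, 309 and 339 CPM in spleen CD8 vehicle. In CD4 libraries Cd3g was at 1031, 1129 and 948 CPM in tumor LCL161 and 917, 596 and 859.8 CPM in tumor vehicle, and at 887, 539 and 616 CPM in spleen LCL161 and 609, 673 and 563 CPM in spleen vehicle. It was lowest in the 3 spleen CD8 vehicle libraries, which overlapped no other group.

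Cd3d, the delta chain, varied least of the members, 2.61-fold between its lowest and highest library, from 339 to 698 CPM in the CD8 gate and from 394 to 883 CPM in the CD4 gate. Its 3 tumor CD8 vehicle libraries were at 698, 563 and 650.1 CPM and its 3 spleen CD8 vehicle libraries at 401, 339 and 381 CPM, with no overlap. Cd247 was at 219, 216 and 224 CPM in tumor CD8 LCL161 and 249, 197 and 242 CPM in tumor CD8 vehicle, and at 203, 199.96 and 238 CPM in spleen CD8 LCL161 and 172, 139 and 155 CPM in spleen CD8 vehicle. In CD4 libraries Cd247 was at 230.0, 231 and 313 CPM in tumor LCL161 and 165, 221 and 247 CPM in tumor vehicle, and at 717, 446 and 429 CPM in spleen LCL161 and 347, 353 and 167 CPM in spleen vehicle. The spleen CD4 LCL161 libraries were the 3 highest for Cd247, as they were for Trbc2.

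CD8-sorted cells of the vehicle-treated spleen had less of 6 of the 7 members than CD4-sorted cells, at a background of 11.4% of all genes called (6.09% called as lower). Trac was 31.8-fold lower (log2 fold change -4.99 ± 0.70, adjusted p = 0.000156). Trbc1 (-1.74 ± 0.47, adjusted p = 0.0218) and Trbc2 (-1.34 ± 0.29, adjusted p = 0.0050) fell, as did Cd3e (-0.77 ± 0.18, adjusted p = 0.0086), Cd3g (-0.90 ± 0.19, adjusted p = 0.0039) and Cd247 (-0.90 ± 0.24, adjusted p = 0.0204). Cd3d was not called, at 374 ± 31.7 CPM in CD8 and 440.0 ± 47.9 CPM in CD4 libraries (-0.24 ± 0.18, adjusted p = 0.45). Groups did not overlap for 4 of the 7 members, all lower in CD8, beside 36.3% of all genes (17.8% lower). The calls of Trbc1 and Cd247 were lost when any of several libraries was left out. Without spleen CD4 vehicle replicate 1 the adjusted p of Trbc1 was 0.132 and that of Cd247 was 0.102, and without replicate 2 they were 0.0637 and 0.0913. Without spleen CD8 vehicle replicates 1, 2 or 3 that of Trbc1 was 0.0718, 0.0821 and 0.0737. For Cd247 it was 0.0834 without spleen CD8 vehicle replicate 2 and 0.0676 without replicate 3. The Trac fold change was -4.30 without spleen CD4 vehicle replicate 2. In a fit of only the 6 libraries compared, the adjusted p were 0.0925 for Trbc1 and 0.0928 for Cd247. With the replicate number as a block within each treatment the calls of Trbc1, Trbc2 and Cd247 were lost.

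These CD8 libraries also held the most conventional dendritic cell RNA. The 9 markers summed to 1769 to 1992 CPM in spleen CD8 vehicle and 131 to 398 CPM in spleen CD4 vehicle, 6 of the 9 were called as higher, and none was at 0 in either group. Plasmacytoid dendritic cell markers (8) ran the other way, with 499.5 to 577 CPM in CD8 and 749 to 2942 CPM in CD4 libraries and 4 of 8 called as lower. Their part in the member differences was not tested.

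With LCL161 the same comparison in spleen called 4 of 7 members as lower in CD8, at a background of 17.4% of genes. Trac was 41.0-fold lower (-5.36 ± 0.70, adjusted p = 6.49e-05), and Trbc2 (-1.80 ± 0.29, adjusted p = 0.00038), Cd3e (-0.85 ± 0.18, adjusted p = 0.0030) and Cd247 (-1.31 ± 0.24, adjusted p = 0.0011) fell. Trbc1 did not pass (-1.07 ± 0.46, adjusted p = 0.12). Cd3d (-0.26 ± 0.18) and Cd3g (-0.24 ± 0.18) were not called either, with adjusted p of 0.32 and 0.40. In a fit of only the 6 libraries compared the adjusted p of Cd3e was 0.0918. The dendritic cell markers summed to 365 to 647 CPM in CD8 and 94.9 to 229 CPM in CD4 libraries here, with 3 of 9 called as higher.

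In the tumor Trac alone was called between the gates. In LCL161 libraries it was 22.7-fold lower in CD8 (-4.50 ± 0.68, adjusted p = 0.0014, 1 of 7 members called, background 2.87%), and in vehicle libraries 16.4-fold lower (-4.03 ± 0.66, adjusted p = 0.0020, 1 of 7, background 4.07%). Trbc2 did not pass in either (-0.67 ± 0.28 with LCL161, adjusted p = 0.24, and -0.97 ± 0.29 with vehicle, adjusted p = 0.062). In the vehicle comparison Trbc2 passed without tumor CD4 vehicle replicate 1 (-1.26, adjusted p = 0.0116), the library with little Trac, which moved the count to 2, while in a fit of only the 6 libraries compared the Trac adjusted p was 0.0669. With limma voom, which was fitted with a quality weight for each library, the Trac value was -2.89. The log2 values of Cd3d, Cd3e and Cd3g ran from -0.14 to 0.00 with LCL161 and from 0.05 to 0.28 with vehicle, and none was called. Cd247 was at 219.6 ± 3.80 CPM in CD8 and 258 ± 47.5 CPM in CD4 LCL161 libraries, and at 229 ± 28.1 CPM in CD8 and 211 ± 41.6 CPM in CD4 vehicle libraries. Natural killer cell markers summed to 702 to 1722 CPM in CD8 and 57.1 to 122 CPM in CD4 LCL161 libraries (2 of 7 higher). They summed to 945 to 1883 CPM in CD8 and 24.8 to 249 CPM in CD4 vehicle libraries (3 of 7 higher, 1 lower). Within this list Ncr1 ran the other way, at 1.11 ± 1.08 CPM in CD8 and 7.32 ± 4.63 CPM in CD4 LCL161 libraries. In vehicle libraries Ncr1 was at 1.14 ± 0.496 CPM in CD8 and 19.1 ± 17.3 CPM in CD4, and neither pair of groups overlapped. B cell markers summed to 37.4 to 65.0 CPM in CD8 and 39.8 to 298.5 CPM in CD4 vehicle libraries (3 of 10 lower), and the part of these cells was not tested.

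Whether the CD8 to CD4 difference itself changed between tumor and spleen was tested with 2 contrasts added after the values of the members had been seen. In vehicle libraries 1 of 7 members was called, at a background of 3.29%: the Cd3e difference was 0.21 ± 0.18 in tumor and -0.77 ± 0.18 in spleen, a change of 0.98 ± 0.25 (adjusted p = 0.0398). The changes for Cd3g (0.95 ± 0.26, adjusted p = 0.052) and Cd247 (1.02 ± 0.34, adjusted p = 0.11) did not pass, and all 7 values were positive. With LCL161 edgeR called 0 of 7 (background 3.29%), 3 had an unadjusted p under 0.05, and DESeq2 and limma voom called 2 each. The Cd3e change was of similar size there (0.85 ± 0.25, adjusted p = 0.071). The vehicle call of Cd3e was kept without spleen CD4 vehicle replicate 1 (adjusted p = 0.0477), tumor CD4 vehicle replicate 1 (0.0199) or tumor CD4 vehicle replicate 3 (0.0461), and lost without any other of the 12 libraries, with a Cd3e adjusted p of up to 0.0982. Without a filter on low counts it was 0.0661.

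**Figure D4:**
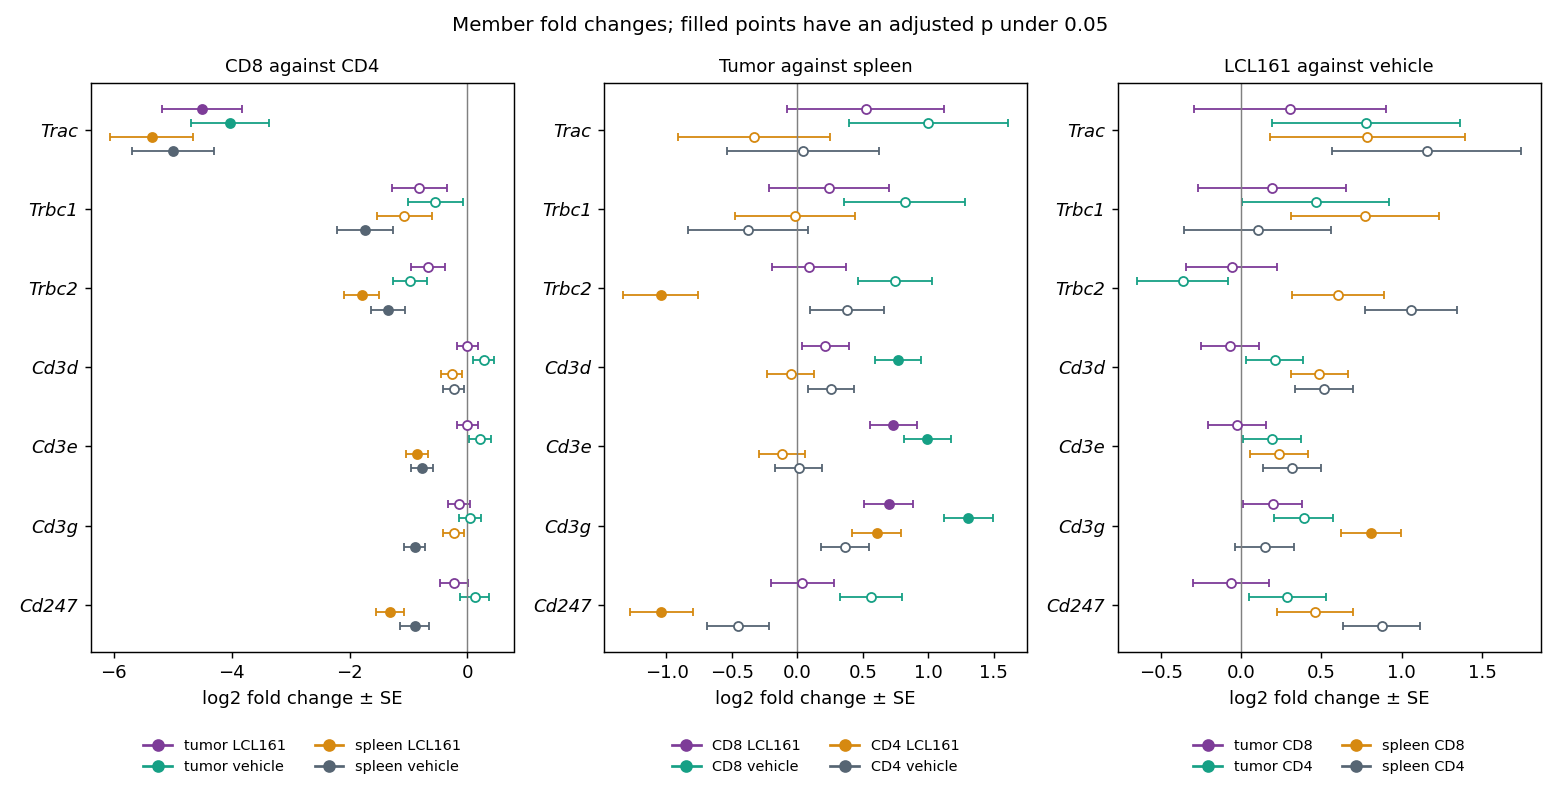
Log2 fold changes ± SE of the 7 members for CD8 against CD4, tumor against spleen and LCL161 against vehicle, in the tissues, gates or treatments named by color (n = 3 libraries a group). Filled points have an adjusted p under 0.05. Trac lies at -4.03 or lower in all 4 comparisons of the gates, and among the LCL161 effects the 1 filled point is Cd3g in spleen CD8 cells.

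Tumor CD8 cells of vehicle-treated mice had more CD3 RNA than spleen CD8 cells. Of the 7 members 3 were called, all higher, at a background of 14.8% of genes (7.95% higher): Cd3g was 2.48-fold higher (1.31 ± 0.19, adjusted p = 0.000178), Cd3e 1.99-fold (0.99 ± 0.18, adjusted p = 0.0011) and Cd3d 1.71-fold (0.77 ± 0.18, adjusted p = 0.0062). In each of the 7 members every tumor library was above every spleen library, as was the case in one direction or the other for 47.8% of all genes (25.3% higher in tumor). Trac (20.7 ± 2.64 CPM in tumor, 10.3 ± 0.924 CPM in spleen), Trbc1 (0.82 ± 0.46), Trbc2 (0.75 ± 0.28, adjusted p = 0.087) and Cd247 (0.56 ± 0.24, adjusted p = 0.13) did not pass. The 3 calls held when each library was left out in turn, with adjusted p of at most 0.0347 for Cd3d, 0.0075 for Cd3e and 0.0014 for Cd3g. limma voom called 5 members and a fit of only the 6 libraries compared called 7. Beside them, conventional dendritic cell markers summed to 322 to 384 CPM in tumor and 1769 to 1992 CPM in spleen (6 of 9 lower). B cell markers summed to 37.4 to 65.0 CPM in tumor and 879 to 1107 CPM in spleen (9 of 10 lower), and natural killer cell markers (7) to 945 to 1883 CPM in tumor and 260 to 640.0 CPM in spleen (1 of 7 higher). Within the latter list Ncr1 ran the other way, at 0.669 to 1.66 CPM in tumor and 3.62 to 7.18 CPM in spleen. Monocyte and macrophage markers summed to 1315 to 2014 CPM in tumor and 188 to 258 CPM in spleen (9 of 10 higher). Of the genes of gamma delta T cells, which carry the same CD3 chains, Trdc was at 1169 to 1667 CPM in tumor and 567 to 698 CPM in spleen, and Tcrg-C1 at 362 to 453 CPM in tumor and 139 to 160.0 CPM in spleen, neither called. The part of these cells in the result was not tested.

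With LCL161 the tumor to spleen difference in CD8 cells was called for 2 members, Cd3e (0.73 ± 0.18, adjusted p = 0.0177) and Cd3g (0.70 ± 0.18, adjusted p = 0.0258), at a background of 8.77%. Cd3d (0.21 ± 0.18) and Cd247 (0.04 ± 0.24) were not called. Here same-numbered libraries of the 2 tissues deviated together, and with the replicate number as a block within each treatment the adjusted p were 0.0719 for Cd3e and 0.109 for Cd3g, so that 0 were called. Single libraries also ended the calls. Without spleen CD8 LCL161 replicate 2 the adjusted p were 0.116 for Cd3e and 0.138 for Cd3g, and without tumor CD8 LCL161 replicate 1 they were 0.0531 and 0.0689. That of Cd3g was 0.0727 without spleen CD8 LCL161 replicate 1 and 0.0696 without tumor CD8 LCL161 replicate 3. In a fit of only the 6 libraries compared it was 0.0510. B cell markers summed to 70.7 to 106 CPM in these tumor and 707 to 1029 CPM in these spleen libraries (9 of 10 lower), and monocyte and macrophage markers to 608 to 926 CPM in tumor and 86.3 to 248 CPM in spleen (9 of 10 higher). Trdc, which was not called, was at 1160.2 to 1478 CPM in tumor and 912 to 1292 CPM in spleen. The part of these cells was not tested.

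In CD4 cells with LCL161, 3 of 7 members were called between tumor and spleen (background 21.3%), 1 higher and 2 lower in tumor. Trbc2 fell to 851 ± 87.3 CPM in tumor, against 1753 ± 317 CPM in spleen (-1.04 ± 0.29, adjusted p = 0.0144). Cd247 fell to 258 ± 47.5 CPM in tumor, against 531 ± 161 CPM in spleen (-1.04 ± 0.24, adjusted p = 0.0049). Cd3g rose to 1036 ± 90.6 CPM in tumor, against 681 ± 182 CPM in spleen (0.61 ± 0.18, adjusted p = 0.0253). In vehicle libraries edgeR called 0 of 7 (background 16.4%), none had an unadjusted p under 0.05, and DESeq2 and limma voom called 0. Cd247 stood at 211 ± 41.6 CPM in tumor and 289 ± 106 CPM in spleen there (-0.45 ± 0.24, adjusted p = 0.20). Without spleen CD4 vehicle replicate 3, the low library for Cd247, it passed (-0.76, adjusted p = 0.0234). In the LCL161 comparison Trbc2 had an adjusted p of 0.0633 without spleen CD4 LCL161 replicate 2 and 0.0594 without tumor CD4 LCL161 replicate 1. Cd3g had one of 0.116 and 0.0723 without spleen CD4 LCL161 replicates 2 and 3 and 0.0571 and 0.0808 without tumor CD4 LCL161 replicates 1 and 2, and of 0.134 in a fit of only the 6 libraries compared. The Cd3g call was also lost with the replicate number as a block within each treatment. Monocyte and macrophage markers summed to 679 to 1354 CPM in these tumor and 187 to 400.2 CPM in these spleen libraries (8 of 10 higher). B cell markers summed to 31.1 to 99.5 CPM in tumor and 835 to 1804 CPM in spleen (9 of 10 lower), and the part of these cells was not tested.

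For LCL161 against vehicle edgeR called 1 member, in 1 of the 4 populations. In spleen CD8 cells Cd3g rose to 578 ± 148 CPM, against 330.2 ± 18.7 CPM with vehicle (0.81 ± 0.19, adjusted p = 0.0129), the only call among the 7 at a background of 8.28% of genes. All 7 log2 values were positive, from 0.23 for Cd3e to 0.81 for Cd3g, and for all but Cd3e every LCL161 library was above every vehicle library, as in one direction or the other for 38.9% of all genes (21.1% higher). Cd3d (0.49 ± 0.18, adjusted p = 0.095), Trbc2 (0.60 ± 0.28, adjusted p = 0.19), Trbc1 (0.77 ± 0.46, adjusted p = 0.31), Cd247 (0.46 ± 0.24, adjusted p = 0.24) and Trac (17.8 ± 4.90 CPM with LCL161, 10.3 ± 0.924 CPM with vehicle, adjusted p = 0.44) did not pass. The 3 Cd3g values were 486, 499 and 748 CPM with LCL161, and without replicate 3 the fold change was 0.56 (adjusted p = 0.127), while without vehicle replicates 1, 2 or 3 the adjusted p was 0.0513, 0.0562 and 0.0517. limma voom called 4 members and a fit of only the 6 libraries compared called 3. Conventional dendritic cell markers summed to 365 to 647 CPM with LCL161 and 1769 to 1992 CPM with vehicle in these libraries (3 of 9 lower), and natural killer cell markers to 646 to 1549 CPM with LCL161 and 260 to 640.0 CPM with vehicle (0 of 7 called). Ncr1 of the latter list was at 2.46 to 3.95 CPM with LCL161 and 3.62 to 7.18 CPM with vehicle. Trdc was at 912 to 1292 CPM with LCL161 and 567 to 698 CPM with vehicle and Tcrg-C2 at 414 to 649 CPM with LCL161 and 270 to 330.1 CPM with vehicle, with no overlap, and neither was called. The part of these cells in the Cd3g change was not tested.

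In spleen CD4 cells edgeR called 0 of 7 members with LCL161 (background 0.431%), while 3 had an unadjusted p under 0.05, DESeq2 called 2 and limma voom 0. All 7 log2 values were positive. Trbc2 was at 1753 ± 317 CPM with LCL161 and 842 ± 399.5 CPM with vehicle (1.06 ± 0.29, adjusted p = 0.10) and Cd247 at 531 ± 161 CPM with LCL161 and 289 ± 106 CPM with vehicle (0.88 ± 0.24, adjusted p = 0.10). These were the 2 that DESeq2 called. Groups did not overlap for the same pair, 2 of 7 members, both higher, beside 14.6% of all genes (7.67% higher). Without spleen CD4 vehicle replicate 2 Trbc2 passed in edgeR (1.49, adjusted p = 0.0183). Trac was at 731 ± 365 CPM with LCL161 and 328 ± 229 CPM with vehicle, with overlapping libraries (1.15 ± 0.59, adjusted p = 0.34). Plasmacytoid dendritic cell markers summed to 492 to 1145 CPM with LCL161 and 749 to 2942 CPM with vehicle. Trdc was at 7.99 to 39.4 CPM with LCL161 and 65.3 to 571 CPM with vehicle and was not called (adjusted p = 0.106). Tcrg-C2 was called as lower, at 25.4 ± 13.3 CPM with LCL161 and 294 ± 197 CPM with vehicle (-3.53 ± 0.74, adjusted p = 0.0413). Tcrg-C1 (-2.44 ± 0.68, adjusted p = 0.107) and Tcrg-C4 (-3.57 ± 1.07, adjusted p = 0.135) did not pass. The part of plasmacytoid dendritic cells and gamma delta T cells was not tested.

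In the tumor no member was called with LCL161. In CD8 cells edgeR called 0 of 7 (background 0.248%), 0 had an unadjusted p under 0.05, and DESeq2 and limma voom called 0. The log2 values ran from -0.07 for Cd3d to 0.31 for Trac, and that of Cd3e was -0.02 ± 0.18. In CD4 cells edgeR called 0 of 7 (background 0.322%), 1 had an unadjusted p under 0.05 (Cd3g, 0.39 ± 0.18, adjusted p = 0.35), and DESeq2 and limma voom called 0. Trac was at 581 ± 233 CPM with LCL161 and 338 ± 249 CPM with vehicle there (0.78 ± 0.59, adjusted p = 0.59), and Trbc2 at 851 ± 87.3 CPM with LCL161 and 1095 ± 457 CPM with vehicle (-0.36 ± 0.28, adjusted p = 0.61). Monocyte and macrophage markers summed to 679 to 1354 CPM with LCL161 and 2400 to 6039 CPM with vehicle in the CD4 libraries (1 of 10 lower), and their part was not tested.

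The LCL161 effect was not shown to differ between the gates. For spleen CD8 minus spleen CD4 edgeR called 0 of 7 members (background 0.292%), 1 had an unadjusted p under 0.05, DESeq2 called 0 and limma voom 1, and that member was Cd3g (0.66 ± 0.26, adjusted p = 0.31 in edgeR). For tumor CD8 minus tumor CD4 edgeR called 0 of 7 (background 0%, 0 of 20174 genes), 0 had an unadjusted p under 0.05, and the other tools called 0. The differences of effects ran from -0.45 for Trbc2 to 0.67 for Trbc1 in spleen and from -0.47 for Trac to 0.31 for Trbc2 in tumor.

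The ratios of the beta genes and of Cd247 to the CD3 chains spanned a wider range in the CD4 gate than in the CD8 gate, given here as descriptions without a test. Their size depends on the exon lengths used. Per length, Trbc1 plus Trbc2 stood at 4.20 to 5.79 times the mean of Cd3d, Cd3e and Cd3g in the CD8 gate and at 4.82 to 20.5 times in the CD4 gate, where the highest ratio was in spleen LCL161 replicate 2. Cd247 stood at 0.136 to 0.211 of that mean in the CD8 gate and at 0.104 to 0.384 in the CD4 gate. The 3 spleen CD4 LCL161 libraries had the 3 highest Cd247 ratios, 0.353, 0.384 and 0.339, and spleen CD4 vehicle had 0.311, 0.272 and 0.154. Cd3g over Cd3e was 0.907 to 1.02 in tumor CD8 vehicle, above the 0.750 to 0.781 of spleen CD8 vehicle, and 1.05 to 1.14 in tumor CD8 LCL161, inside the 0.850 to 1.40 of spleen CD8 LCL161. In CD4 libraries it was 1.12 to 1.29 in tumor LCL161, above the 0.706 to 0.793 of spleen LCL161, and 1.03 to 1.11 in tumor vehicle, above the 0.780 to 0.921 of spleen vehicle.

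**Figure D5:**
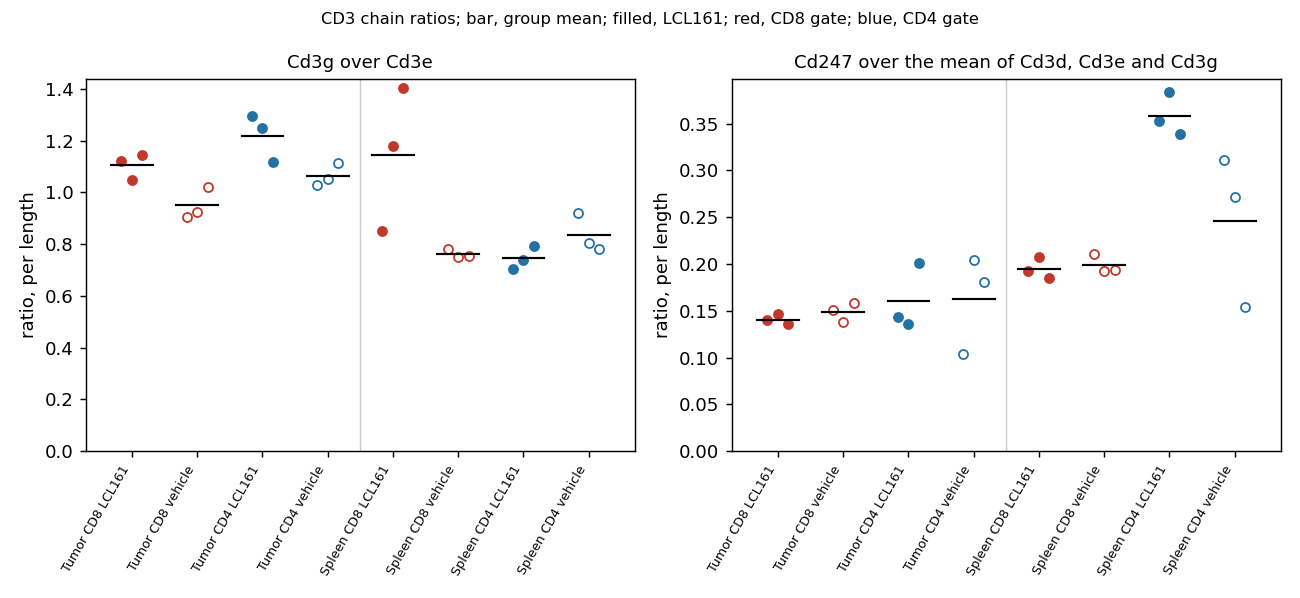
Left, Cd3g over Cd3e per length; right, Cd247 over the mean of Cd3d, Cd3e and Cd3g per length, with 1 point per library and a bar at the group mean. Red is the CD8 gate, blue the CD4 gate, filled LCL161 and open vehicle. On the left tumor libraries lie at 0.907 or higher, as do spleen CD8 LCL161 replicates 2 and 3 (1.18 and 1.40) and spleen CD4 vehicle replicate 1 (0.921). On the right the 3 spleen CD4 LCL161 libraries are highest (0.339 to 0.384).

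Genes that act next to the complex were counted from a list of 41 T cell receptor pathway genes, 40 of which were in the table and tested. Between tumor and spleen CD8 cells of vehicle-treated mice 12 of 40 rose and 0 fell, beside 14.8% of all genes called (7.95% higher), with a list median of 0.55 beside 0.03 over all genes. They included Sh2d2a, an adaptor that binds Lck (1.71 ± 0.21, adjusted p = 6.41e-05), Sla2, an adaptor that restrains receptor signalling (0.90 ± 0.12, adjusted p = 8.06e-05), Lcp2, the scaffold SLP-76 (0.86 ± 0.17, adjusted p = 0.0018), and Ptpn22, a phosphatase (0.72 ± 0.16, adjusted p = 0.0039). Skap1, an adaptor, rose as well (0.66 ± 0.16, adjusted p = 0.0080). With LCL161 5 of 40 rose between these tissues and 0 fell, beside 8.77% of all genes called, with a median of 0.08 beside 0.00.

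LCL161 against vehicle in spleen CD8 cells called 5 of the 40 as higher and 1 as lower, beside 8.28% of all genes called (median 0.15, all genes 0.06). Those that rose were Sh2d2a (1.19 ± 0.21, adjusted p = 0.0035), Ptpn22 (0.84 ± 0.16, adjusted p = 0.0045), Skap1 (0.76 ± 0.16, adjusted p = 0.0087), Sla2 (0.50 ± 0.12, adjusted p = 0.0146) and Lck, the kinase that phosphorylates the CD3 chains (0.51 ± 0.14, adjusted p = 0.0349), and Cbl, a ubiquitin ligase, fell (-0.79 ± 0.23, adjusted p = 0.0386). In spleen CD4, tumor CD4 and tumor CD8 cells edgeR called 0 of the 40 with LCL161. Between the gates of the vehicle spleen 3 of 40 were higher in CD8 and 9 lower, beside 11.4% of all genes called and 6.09% called as lower (median -0.31, all genes -0.03). The 40 include the coreceptor genes Cd4, Cd8a and Cd8b1, whose differences between the gates were set by the sort, so these counts partly restate it. Apart from the coreceptors, the calls included Cd28, the costimulatory receptor (-1.69 ± 0.25, adjusted p = 0.000250), Cd6 (-2.06 ± 0.30, adjusted p = 0.000279) and Lcp2 (-1.03 ± 0.17, adjusted p = 0.00058) as lower. Fyn, a Src family kinase that acts beside Lck, was lower too (-0.88 ± 0.16, adjusted p = 0.0015).

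Of 10 transcription factors of T cell identity, 0 rose and 3 fell in the same vehicle spleen comparison, beside 11.4% of all genes called (6.09% lower). They were Zbtb7b, which directs CD4 lineage choice (-2.05, adjusted p = 8.5e-06), Gata3 (-1.55, adjusted p = 0.00011) and Tox (-3.09, adjusted p = 0.0022). Bcl11b (0.88, adjusted p = 0.011) and Gata3 (0.87, adjusted p = 0.0068) were the 2 of 10 that rose in tumor against spleen CD8 vehicle cells, where 0 fell and 14.8% of all genes were called (7.95% higher). Among the other chains that can join the complex, Ptcra, the pre-T alpha chain, stayed at 3.0 CPM or lower in all 24 libraries, and Fcer1g, which can replace the zeta chain, was at 30.7 to 459 CPM. The library with the most Fcer1g, tumor CD4 vehicle replicate 2, also had the highest monocyte and macrophage marker sum (6039 CPM). The part of those cells in the Fcer1g level was not tested. Of the 4 gamma and delta constant genes Tcrg-C1, Tcrg-C2, Tcrg-C4 and Trdc, all 4 were called as higher in CD8 against CD4 cells of the LCL161 spleen and 2, Tcrg-C1 and Tcrg-C2, in the LCL161 tumor. In vehicle libraries edgeR called 0 of the 4 in spleen, with log2 values from -0.11 for Tcrg-C4 to 1.05 for Trdc (adjusted p = 0.56), and 0 of the 4 in tumor, with values from 0.59 for Tcrg-C2 to 2.67 for Trdc (adjusted p = 0.15).

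Across the 24 libraries, 12 from each gate, the genes most like Trac by Pearson correlation of log2 CPM over 13649 genes were Cd4 (r = 0.94), Cd40lg (0.93), Mif4gd (0.93), Cd6 (0.93), Cd5, Tnfrsf4, Neu3 and Foxs1 (0.92 each). For the mean of Cd3d, Cd3e, Cd3g and Cd247 they were Shisa5 (0.91), Lck (0.90), Mir8119 (0.89), Casp1 (0.89), Rac2 (0.88), Zgpat (0.88), Cox20 (0.87) and Lime1 (0.86). Among the members themselves Cd3e and Cd3g (r = 0.84), Cd3d and Cd3g (0.83) and Cd3d and Cd3e (0.79) varied together, Trac varied most with Trbc2 (0.88), and Cd247 varied more with Trbc2 (0.82) than with Cd3g (0.33). These correlations are descriptions over libraries that share tissue, gate and treatment within each group.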

How the data were processed

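The files hold expected counts per gene symbol (estimated counts, 52.7% of the non-zero values not whole) deposited by the authors, unnormalized, for 24 libraries. Reads were handled with cutadapt and STAR 2.7.3a on GRCm38, per the submitters' processing notes, and the sources used here name neither the counting tool nor its strand setting. The counts were rounded to whole numbers, filtered with filterByExpr (minimum count 10) and TMM scaled. They were fitted in edgeR 4.0.16 (R 4.3.3) with the quasi-likelihood test, as 1 model with 8 group means (16 residual degrees of freedom, common biological coefficient of variation 0.326), and with Benjamini-Hochberg adjustment over 20174 genes. Totals of 15455227 to 25144888 counts a library limit the precision of low genes. TMM factors were 0.939 to 1.05. Fold changes are log2 values, and CPM values use TMM-scaled totals. The procedure was tested on simulated counts. Apart from planted changes these had the same mean per gene in all groups, unlike the libraries here. No replicate pair differed by less than the sampling noise (chi-square per gene 13.0 to 135 over 24 pairs).

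There were 14 planned comparisons and 2 added ones. Alternatives were other scalings and filters, DESeq2 1.42.0, limma 3.58.1 voom, a replicate block, fits of the compared libraries only, Trbc1 and Trbc2 summed, and leaving out each library. The voom fits gave each library a quality weight. Replicate numbers came from the labels. In 1 of the 12 comparisons of 2 groups, tumor against spleen CD8 with LCL161, all deviations of same-numbered libraries correlated at 0.112 to 0.166. Elsewhere a weaker pairing was not excluded. Same-numbered libraries correlated at 0.0409 to 0.0848 for CD8 against CD4 in the vehicle spleen, and other numbers at -0.0642 to -0.0138. For tumor against spleen CD8 with vehicle the values were 0.0170 to 0.0633 and -0.0409 to 0.0146. For tumor against spleen CD4 with LCL161 they were 0.00483 to 0.112 and -0.102 to 0.00514. All members are described, up to 6 pathway genes with the smallest adjusted p are named for a comparison (1 result is not reported here), and the 8 genes with the highest correlation are named for each pattern. The members, gene lists and marker lists were chosen with earlier results of these data known. Annotation and coordinates are GENCODE M21 (GRCm38), and promoter sequences are RefSeq (GRCm38.p6).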

Additional observations from a re-analysis of the deposited data

Results flagged for a closer look

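The Cd3e difference between CD8-sorted and CD4-sorted vehicle libraries changed by 0.98 on the log2 scale between tumor (0.21 ± 0.18) and spleen (-0.77 ± 0.18), which stood out because the change itself passed edgeR's quasi-likelihood test of the difference (adjusted p = 0.0398). The contrast was added after the values had been seen, and the adjusted p ran from 0.0199 to 0.0982 when each of the 12 libraries was left out.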

How the results depend on the processing

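Of 112 member results 22 were called, and of these 22 stayed called with RLE scaling, without scaling, with a stricter filter, with DESeq2, with voom and with the replicate block, 21 without a filter and 16 when only the compared libraries were fitted, while new calls numbered from 0 to 10. With Trbc1 and Trbc2 summed 18 of 18 stayed called. The replicate block within treatment kept 14 of 20. It left 3 of the 6 members called for CD8 against CD4 in the vehicle spleen, where Trbc1 (adjusted p = 0.0653), Trbc2 (0.0657) and Cd247 (0.0949) were lost, 0 of 2 for tumor against spleen in CD8 LCL161 libraries, and 2 of 3 in CD4 LCL161 libraries, where Cd3g (0.0931) was lost. Same-numbered libraries deviated together most clearly in the CD8 LCL161 comparison of tissues. In the vehicle spleen comparison of gates they did so weakly, with correlations of 0.0409 to 0.0848. Libraries with other numbers correlated there at -0.0642 to -0.0138. Member counts also moved as follows, and the cause was not tested. LCL161 against vehicle called 2 members in spleen CD4 with DESeq2, and in spleen CD8 4 with voom and 3 with the compared libraries only. CD8 against CD4 called 2 in tumor vehicle with the stricter filter or DESeq2 and 0 with the compared libraries only, and 2 in tumor LCL161 with the compared libraries only. Tumor against spleen called 5 in CD8 vehicle with voom and 7 with the compared libraries only, and 1 in CD8 LCL161 with the compared libraries only. The difference of LCL161 effects in spleen called 1 with voom. The difference of CD8 against CD4 between tissues called, in vehicle, 2 with RLE scaling, without scaling, with the stricter filter or the compared libraries only, 3 with DESeq2 or voom and 0 without a filter, and in LCL161 1 without scaling, with the stricter filter or the compared libraries only and 2 with DESeq2 or voom. Leaving out libraries gave counts of 0 to 1 for LCL161 in spleen CD4 and CD8, 1 to 2 for CD8 against CD4 in tumor vehicle, 0 to 1 for tumor against spleen in CD4 vehicle, 1 to 3 in CD4 LCL161 and 0 to 2 in CD8 LCL161, and 0 to 2 for the difference between tissues in vehicle and in LCL161.

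No called log2 fold change reversed in any of these alternatives, and 28 uncalled values did outside the fits that leave out a library. For LCL161 against vehicle, spleen CD4, Cd3g was -0.021 (voom). For LCL161 against vehicle, tumor CD4, Trbc2 was 0.024 (voom). For CD8 against CD4, spleen LCL161, Cd3d was 0.033 (voom), Cd3g was 0.047 (voom). For CD8 against CD4, tumor vehicle, Cd3g was -0.045 (voom). For CD8 against CD4, tumor LCL161, Cd3d was -0.0090 (no filter) and -0.0036 (voom) and -0.00057 (replicate block) and -0.0035 (block within treatment), Cd3e was 0.060 (no scaling) and 0.0042 (voom). For tumor against spleen, CD4 vehicle, Trac was -0.00059 (no scaling) and -0.68 (voom) and -0.011 (block within treatment), Trbc1 was 0.11 (voom), Cd3e was -0.0064 (RLE) and -0.043 (no scaling) and -0.0064 (DESeq2) and -0.013 (replicate block). For tumor against spleen, CD4 LCL161, Cd3d was 0.21 (voom), Cd3e was 0.092 (voom). Among differences of LCL161 effects, spleen CD8 minus spleen CD4, Cd3d was 0.022 (no scaling) and 0.23 (voom) and 0.010 (replicate block), Cd3e was 0.037 (voom). Among differences of LCL161 effects, tumor CD8 minus tumor CD4, Trbc2 was -0.073 (voom). For the difference of CD8 against CD4, tumor minus spleen, LCL161, Cd3d was -0.036 (voom), Cd3g was -0.20 (voom).

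Leaving out a library turned the sign of uncalled values, over these ranges. For LCL161 against vehicle, spleen CD4, Trbc1 ran from -0.37 to 0.55, Cd3g ran from -0.095 to 0.27. For LCL161 against vehicle, tumor CD4, Trbc1 ran from -0.031 to 0.83. For LCL161 against vehicle, tumor CD8, Trac ran from -0.013 to 0.45, Cd3e ran from -0.076 to 0.024. For CD8 against CD4, spleen LCL161, Cd3d ran from -0.43 to 0.048. For CD8 against CD4, tumor vehicle, Cd3g ran from -0.088 to 0.19, Cd247 ran from -0.0052 to 0.25. For CD8 against CD4, tumor LCL161, Cd3d ran from -0.022 to 0.042, Cd3e ran from -0.046 to 0.049. For tumor against spleen, CD4 vehicle, Trac ran from -0.49 to 0.69, Trbc1 ran from -0.84 to 0.051, Cd3e ran from -0.17 to 0.14. For tumor against spleen, CD4 LCL161, Trac ran from -0.68 to 0.051, Trbc1 ran from -0.53 to 0.44, Cd3d ran from -0.21 to 0.26, Cd3e ran from -0.26 to 0.16. For tumor against spleen, CD8 LCL161, Cd247 ran from -0.0081 to 0.12. Among differences of LCL161 effects, spleen CD8 minus spleen CD4, Trac ran from -1.06 to 0.012, Cd3d ran from -0.20 to 0.28, Cd3e ran from -0.23 to 0.19. Among differences of LCL161 effects, tumor CD8 minus tumor CD4, Trbc1 ran from -0.65 to 0.21. For the difference of CD8 against CD4, tumor minus spleen, vehicle, Trbc2 ran from -0.058 to 0.65. For the difference of CD8 against CD4, tumor minus spleen, LCL161, Trbc1 ran from -0.20 to 0.78, Cd3d ran from -0.045 to 0.43, Cd3g ran from -0.13 to 0.32.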
